A study of Drosophila melanogaster with 2 samples.

Results

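Of the 18277 annotated Drosophila melanogaster genes considered, 10 were selected because they lie nearest to the strongest CG6654 binding sites found away from gene starts: CG7031, bisc, Cat, CG7120, lectin-28C, lncRNA:CR44278, CG31804, CG32196, CG32264 and CG9171. Of these, 9 are protein-coding and lncRNA:CR44278 is a noncoding RNA gene. They were chosen by the authors' signal value. Among the 25 peaks of highest signal in the reproducible set, 15 had their summit more than 500 bp from every protein-coding start site, and 10 of these 15 lie nearest to the genes named here. The peak that selected a gene is called its leading peak below. Since signal selected the peaks, their heights are a description and were not tested. The last of the 25 peaks, at the start of CG8675, had a signal of 3369, and the first peak left out, at the start of CG17544, had 3304. The lowest of the 10 leading peaks had 3715.

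CG6654 belongs to the ZAD-C2H2 family of Drosophila proteins, in which an N-terminal zinc finger-associated domain that mediates protein contacts is joined to an array of DNA-binding C2H2 zinc fingers. Binding was measured by chromatin immunoprecipitation and sequencing (ChIP-seq) in whole embryos of 0 to 12 h, males and females together. The flies were of the transgenic strain CG6654-GFP, which stably makes CG6654 with GFP at its C terminus, and the tagged protein was precipitated with an anti-GFP antibody after sonication. All values come from 1 group of 2 biological replicates, numbered 1 and 3, so no treated or mutant group is compared. Whether these flies also make untagged CG6654 is not given in the sources used here, and a whole embryo averages over all its cell types and stages. Sites in introns and between genes can be enhancers, insulators or other elements, and the gene with the nearest start is not necessarily one that such a site acts on. Occupancy is also not expression, which was not measured.

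A shared sequence lay in each of the 10 leading peaks, counted over whole peaks. By the same count it was in 14 of the other 15 peaks among the first 25, and in 371 of the 2937 below rank 25. It was learned from other peaks, namely those ranked 26 to 600 by signal and outside the 10 genes and the 15 kb around each, in which the word CAGTTTGA (either strand) was in 94 of 575 windows reaching 50 bp to each side of the summit (16.3%) and in 8 of 1150 windows 200 to 300 bp away (0.696%). The weight matrix grown from that word has 19 columns, built from 141 sites. Its most frequent bases begin with CACAGTTTGA and end with CCACTG. A site was counted as a match when its log2 odds score was above 8.73, the score that 1% of flank windows exceed, and the highest possible score is 32.18. The best match in each leading peak is shown for 8 of the genes, because these sites are what the peaks have in common. They lie at chr3R:22794078-22794096 (minus strand, beside CG7031), chr3L:3789314-3789332 (plus, CG32264), chr2L:5771414-5771432 (plus, CG9171), chr2L:7856535-7856553 (plus, lectin-28C), chr3L:18460441-18460459 (plus, CG32196), chr3L:8395144-8395162 (minus, CG7120), chr3L:18828467-18828485 (minus, Cat) and chr2L:17368641-17368659 (plus, CG31804) of the dm6 build. Each is written 5′ to 3′ on its own strand, from the RefSeq Release 6 genome, with capitals at the bases equal to the most frequent base of their column.
CG7031: tAtAGTTTGAGAcgtACTG
CG32264: agCAGTTTGAGAGgCgCcG
CG9171: ataAGTTTGAaAGtCAtTG
lectin-28C: aAaAGTTTGAGAagCACTt
CG32196: acaAGTTTtAGAGgCACTG
CG7120: CACAGTTTGAcActCACTG
Cat: CACAGTTTtAcAtCtACTG
CG31804: CACAGTTTGtaAGCaACTG
The bases AGTTT at columns 4 to 8 are kept in all 8 sites shown, while the first 3 columns and the middle columns vary. The sites were picked by this matrix, in which columns 4 to 8 weigh most, so nothing is read from that. The sites beside CG7120 and CG31804 each hold 16 of the 19 most frequent bases, that of Cat holds 15, that of CG9171 holds 13 and the other 4 hold 14. Scores ran from 12.32 at CG9171, through 16.33 at CG7031, 16.61 at lectin-28C, 18.02 at CG32196, 18.32 at CG32264, 19.0 at CG31804 and 21.99 at Cat, to 26.09 at CG7120. The sites of lncRNA:CR44278 and bisc are given by score alone, 13.84 with 15 of the 19 bases and 23.13 with 16.

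The arrangement of matches differed between peaks, and the 131 bp around 4 of the summits show how. In these windows capitals mark whole matches. They are chr3R:22794099-22794229 (minus strand), beside CG7031, with the highest signal of all; chr3L:3789278-3789408 (plus), in CG32264, where one match ends on the base at which the next begins and the capitals therefore run together; chr2L:5771308-5771438 (plus), in CG9171, whose match is away from the summit; and chr3L:8395077-8395207 (minus), beside CG7120, with the highest score.
CG7031: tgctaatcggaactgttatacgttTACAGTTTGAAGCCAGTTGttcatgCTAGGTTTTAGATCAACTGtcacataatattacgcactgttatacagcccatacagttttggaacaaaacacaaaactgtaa
CG32264: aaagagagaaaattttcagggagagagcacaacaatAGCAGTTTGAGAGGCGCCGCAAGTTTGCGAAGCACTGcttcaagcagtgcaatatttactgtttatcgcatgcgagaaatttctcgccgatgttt
CG9171: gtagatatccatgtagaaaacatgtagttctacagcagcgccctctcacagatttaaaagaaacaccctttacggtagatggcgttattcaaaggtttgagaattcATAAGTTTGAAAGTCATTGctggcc
CG7120: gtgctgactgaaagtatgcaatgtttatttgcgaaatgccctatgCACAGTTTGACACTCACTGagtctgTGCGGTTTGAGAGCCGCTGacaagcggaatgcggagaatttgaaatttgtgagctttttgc
The summit is the middle base of each window. Beside CG7031 the peak held 4 matches, of which the window shows the 2 nearest the summit, 25 bp apart and on the same strand, with scores of 9.46 and 9.15. The other 2 lie 77 bp to the left and 80 bp to the right of the summit in genome coordinates, with scores of 16.33 and 12.64. In CG32264 the pair is 18 bp apart on the same strand (18.32 and 11.46), and a further match on the other strand lies 76 bp from the summit (13.15). The pair of CG7120 is 25 bp apart on the same strand, with scores of 21.91 and 26.09.

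In all, the 10 leading peaks held 19 matches, and 17 of them carry AGTTT at columns 4 to 8, the columns that weigh most in the matrix that picked them. A single match was found in the peaks of CG9171, lectin-28C, CG32196 and Cat, 2 in those of lncRNA:CR44278, CG7120, bisc and CG31804, 3 in that of CG32264 and 4 in that of CG7031. The 2 matches were 21 bp apart at lncRNA:CR44278, on the same strand, 23 bp apart at bisc, on opposite strands, and 68 bp apart at CG31804, on opposite strands. A match lying wholly within 50 bp of the summit was present in 8 of the 10 leading peaks (80%, 95% Wilson interval 49.0 to 94.3, counting error over peaks only), against 10.6% of the 2952 other peaks. The exceptions were CG9171, with a best score of −5.56 in that window, and CG32196, with 7.70. Both had a match centred exactly 50 bp from the summit, so that part of it fell outside the window, and with 100 bp on either side all 10 had one. The count of 8 rests on a lenient threshold: with the score that 0.1% of flank windows exceed (24.81) the CG7120 peak alone had a match, and exact copies of the 8-base word lay at 4 summits (CG7031, CG32264, CG7120 and bisc).

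**Figure D1:**
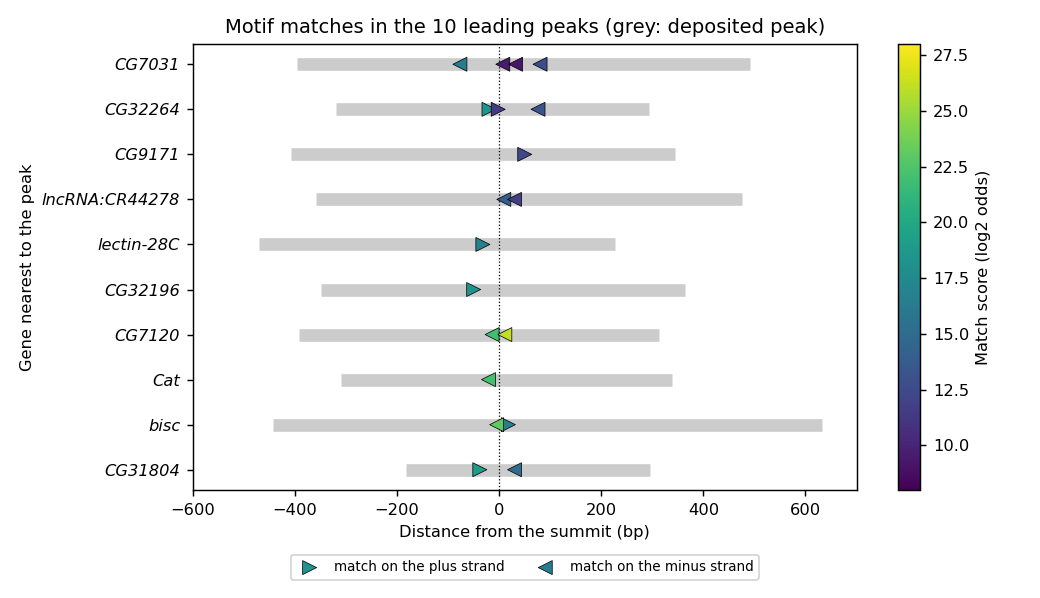
Matches to the 19-column matrix in the 10 leading peaks, by distance from the summit in bp (x axis, genome left to right); grey bars span the deposited peak, triangles point along the strand of the match and their colour gives its log2 odds score. The 19 matches lie within 80 bp of the summits, while the peaks are 478 to 1076 bp wide.

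The same share of matches was found at the other peaks of this height. Among the other 15 of the first 25 peaks 12 had a match within 50 bp of the summit (80%, Wilson interval 54.8 to 93.0), among them 5 of 5 that are not at gene starts and 7 of 10 that are. The share was 31% over the 575 training peaks and 5.26% over 2357 peaks of lower rank (Wilson interval 4.43 to 6.24), and 1% of 5894 flank windows passed the threshold by its definition. Among non-promoter peaks other than the leading ones, 241 of 1738 had a match (13.9%). Counted over whole peaks, 6 of the 10 leading peaks held 2 or more matches, against 8 of the other 15 and 64 of the 2937 peaks below rank 25. The last group is narrower, with a median width of 384 bp against 710 bp for the leading peaks and 757 bp for the other 15, and the part of width in these counts was not tested.

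Among the leading peaks the better match did not go with the higher signal. The lowest best scores, 12.32 and 13.84, belonged to CG9171 and lncRNA:CR44278, with the fifth and the seventh highest signal of all peaks, and CG7031, with the highest signal, had 16.33. The highest best scores, 26.09, 23.13 and 21.99, belonged to CG7120, bisc and Cat, which ranked 14, 20 and 17. Over the 10 peaks the Spearman coefficient between signal and best score was −0.71. It was 0.07 over the other 15 of the first 25 and 0.28 over the 371 lower-ranked peaks with a match. The number of matches in the peak had a coefficient of 0.32 with signal (10 peaks). These are descriptions over peaks of the same libraries, all 10 within a narrow range of signal that the choice fixed.

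**Figure D2:**
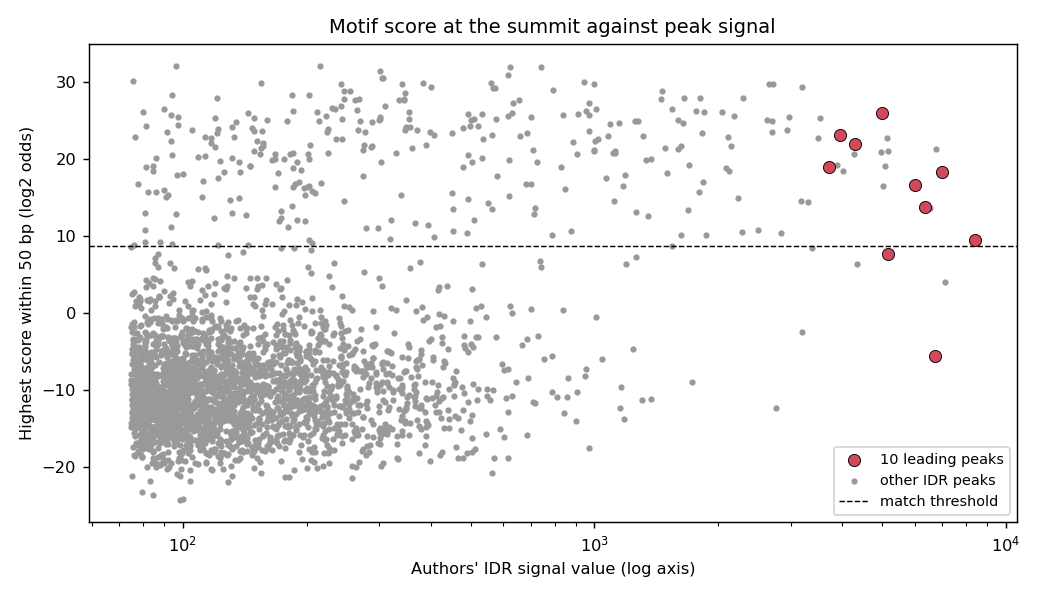
Highest motif score within 50 bp of the summit (y axis, log2 odds) against the authors' signal value (x axis, log scale) for the 10 leading peaks (red) and the other 2952 peaks of the reproducible set (grey); the dashed line is the threshold of 8.73. Of the red points 8 lie above the line, and those of CG32196 (7.70) and CG9171 (−5.56) lie below it.

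Outside the leading peaks 21 matches lay around the 10 genes, most of them of lower score than the best one in the peak. The surroundings of a gene are its body and 15 kb on each side, 446893 bp over the 10 genes. They held 40 matches in all, leading peaks included. Outside the leading peaks the density was 0.478 per 10 kb, against 0.347 per 10 kb outside reproducible peaks on the 7 chromosome arms, a difference that was not tested. Of the 40 matches 19 lay in the leading peaks and 0 in other peaks of the reproducible set, 10 lay only in regions of the unthresholded lists (1 of them, in CG32264, in the leading region as replicate 3 alone bounds it), and 11 lay in no region at all. The 0 holds for surroundings drawn around the gene and not around the summit. Outside them, a reproducible peak of rank 174 lay 11283 bp from the CG31804 summit. It has a match of 29.3, above the highest in the 10 leading peaks, and its rank is among those used for training. The median score was 16.3 in the leading peaks, 12.0 in unthresholded regions and 10.3 outside all regions. Over the whole genome 8.52% of 5178 matches lay in a reproducible peak and 17.5% in a region of the pooled list; around the 10 genes the counts were 19 and 24 of 40, and the leading peak that chose each gene is among them. In 4 genes (lectin-28C, CG32196, Cat and CG31804) no match lay in a weak region, and lectin-28C and CG32196 had no match outside the leading peak. Matches outside the leading peak reached its best score in CG9171 and came close to it in CG7031. CG9171 has a better copy than the one under its peak, 18777 bp away at chr2L:5790141-5790159 (minus strand) with a score of 17.46, in a weak region (signal 30.3 in the pooled list and 12.9 in replicate 1, none in replicate 3). CG7031 has a copy at chr3R:22791405-22791423 (plus strand), 2750 bp away, that scores 16.16 against the 16.33 of the best one in its peak, and it lay in a region of replicate 3 alone, with a signal of 15.9. Both are shown with capitals at the most frequent bases, for comparison with the sites above.
CG9171, outside the peak: aACAGTTTGAGcagCACTt
CG7031, outside the peak: tACgGTTTGgGctCCACcG
In CG32264 a copy scoring 15.71 (3L, 3741327 to 3741345, plus strand) lay in no region of any list.

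Both replicates placed the 10 leading peaks among their own first 25 regions, and at almost the same base. The reproducible set was made from both replicate lists, so this is a property of how the peaks were chosen, and nothing is read from it; 0.81% of all 2962 reproducible peaks are in the first 25 of both. Ranks 23 and 23 were the lowest, and no summit lay more than 8 bp from the summit of the reproducible peak (median 0 bp in replicate 1 and 3 bp in replicate 3). The order of the 10 by signal was kept in both replicates for 7 of the 9 neighbouring pairs. The exceptions were lncRNA:CR44278, which stood above CG9171 in replicate 1, and bisc, which stood above Cat there. The Spearman coefficient between the replicates' signals was 0.87 over the 10 peaks. The scale of the authors' signal is not stated and the depth of the libraries is unknown, so values are compared within a list and not between lists.

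**Figure D3:**
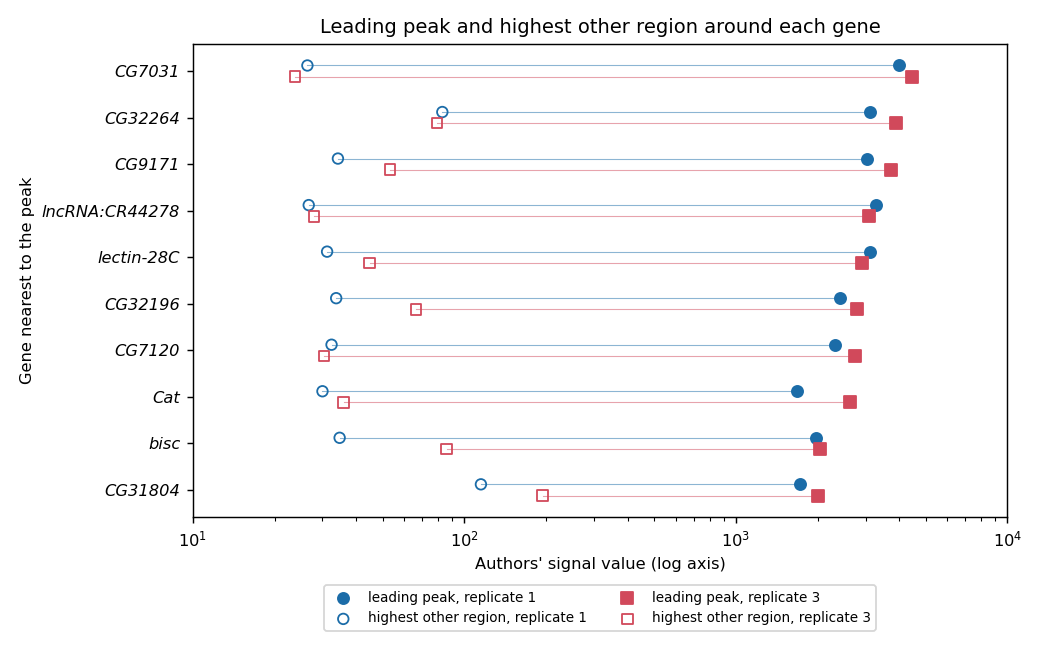
The authors' signal value (x axis, log scale) of each gene's leading peak (filled) and of the highest other region in the gene or within 15 kb of it (open), in replicate 1 (blue circles) and replicate 3 (red squares). Filled and open symbols do not overlap for any gene, and CG31804 has the shortest distance, 1724 against 115 in replicate 1 and 2008 against 194 in replicate 3.

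Inside a gene lay 4 of the leading peaks. In CG32264 (FBgn0052264; 3L, 3714826 to 3806459, minus strand), an uncharacterized protein gene of 91634 bp with 8 start sites, the peak (3L, 3789023 to 3789637) was in an intron of 6550 bp, 1377 bp from a start site of the gene. Its signal was 3115 in replicate 1 and 3899 in replicate 3, ranks 6 and 2 of these lists. The start of CG32266 lay 1461 bp away on the other side. In CG9171 (FBgn0031738; 2L, 5767002 to 5800253, minus strand), also uncharacterized, the summit (peak 2L, 5770966 to 5771717) was in an intron of 937 bp and at the same time in an exon of the antisense noncoding gene asRNA:CR31912. The peak reached into the CG9171 exon to the left of that intron in genome coordinates. It had 3037 in replicate 1 and 3738 in replicate 3, with a start site of CG9171 at 1143 bp and that of obst-E, which encodes a chitin-binding protein, at 5231 bp. Both genes have several start sites, and the leading peak was closer to one of them than to the start of any neighbour.

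CG32196 and Lrch each held a leading peak with its summit in a short intron. CG32196 (FBgn0052196; 3L, 18459464 to 18461024, minus strand) is an uncharacterized gene of 1561 bp, and its peak (3L, 18460150 to 18460864, 715 bp wide) covered most of an intron of 522 bp and reached into the exon to its left in genome coordinates. The signal was 2407 in replicate 1 and 2782 in replicate 3, 524 bp from the only start of the gene, and the next protein-coding start on the left, of the cell death gene skl, was 20558 bp away. The peak listed for CG31804 (FBgn0051804; 2L, 17363496 to 17364351) lay outside that uncharacterized gene, with its summit in an intron of 353 bp of Lrch (peak 2L, 17368506 to 17368983). Lrch encodes a protein with leucine-rich repeats and a calponin homology domain. The peak reached into the Lrch exon to the right of that intron in genome coordinates. The start of CG31804 was 5192 bp from the summit, its end 4337 bp, and the start of Lrch 15427 bp. It had 1724 in replicate 1 and 2008 in replicate 3, the lowest of the 10 in replicate 3 and in the reproducible set, while Cat was lower in replicate 1.

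Between genes lay 6 leading peaks, and 4 of these summits were within 1000 bp past the end of a protein-coding gene. The comparison with gene ends was chosen after the positions had been seen, and 17.8% of the 432 intergenic peaks of the reproducible set lie so. It is not particular to these genes. In any location, 6 of the 10 start-site peaks among the first 25 lie so. The count is 0 for the other 5 non-promoter peaks among them, all in introns, and 361 for all 2952 other reproducible peaks. Of the 10 leading peaks the same 4 do. The highest peak of the set, beside CG7031 (FBgn0039027; 3R, 22804291 to 22807290, plus strand), is one of them: its summit (peak 3R, 22793767 to 22794656) was 134 bp past the end of CG7029 and 10127 bp from the start of CG7031, with 3979 in replicate 1 and 4442 in replicate 3, the first region of both lists. The peak of lncRNA:CR44278 (FBgn0265305; 2R, 8768296 to 8768795; peak 2R, 8759430 to 8760265) was 199 bp past the end of blo and 8507 bp from the RNA gene, whose start is at its far side at 9006 bp, with 3287 in replicate 1 and 3085 in replicate 3. The nearest protein-coding start on the side of the RNA gene, that of CG8746, was 32844 bp away, the longest such distance of the 10.

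Between Cat and Indy the genes face each other with their ends. Cat (FBgn0000261; 3L, 18822604 to 18828188, plus strand) encodes catalase, which breaks down hydrogen peroxide, and Indy encodes a citrate transporter. The summit (peak 3L, 18828188 to 18828835) was 309 bp past the end of Cat and 135 bp past that of Indy, while their starts were 5893 and 12019 bp away. The signal was 1683 in replicate 1 and 2635 in replicate 3, which put Cat at rank 23 in replicate 1 and rank 15 in replicate 3. The peak of bisc (FBgn0034626; 2R, 21383227 to 21384391, minus strand; peak 2R, 21382067 to 21383142) was 717 bp past the end of bisc itself, 1881 bp from its start and 3046 bp from that of cv-2, which encodes a BMP-binding protein. It had 1973 in replicate 1 and 2035 in replicate 3 and was the widest of the 10 at 1076 bp.

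The remaining intergenic peaks, of lectin-28C and CG7120, lay between gene starts that point away from each other. Lectin-28C (FBgn0040099; 2L, 7857077 to 7860120, plus strand) encodes a C-type lectin, a sugar-binding protein. Its peak (2L, 7856106 to 7856802) was 501 bp from that start, just past the 500 bp limit for a promoter peak, and the summit of replicate 3 was 498 bp from it, so a small shift would have put it in the other class. The start of CG14535 was 1101 bp away on the other side. The signal was 3119 in replicate 1 and 2910 in replicate 3. CG7120 (FBgn0035888; 3L, 8396000 to 8402295, plus strand) is uncharacterized, and its peak (3L, 8394750 to 8395455) was 858 bp from its start and 1493 bp from that of Jon66Cii, a Jonah serine protease gene. It had 2309 in replicate 1 and 2739 in replicate 3.

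**Figure D4:**
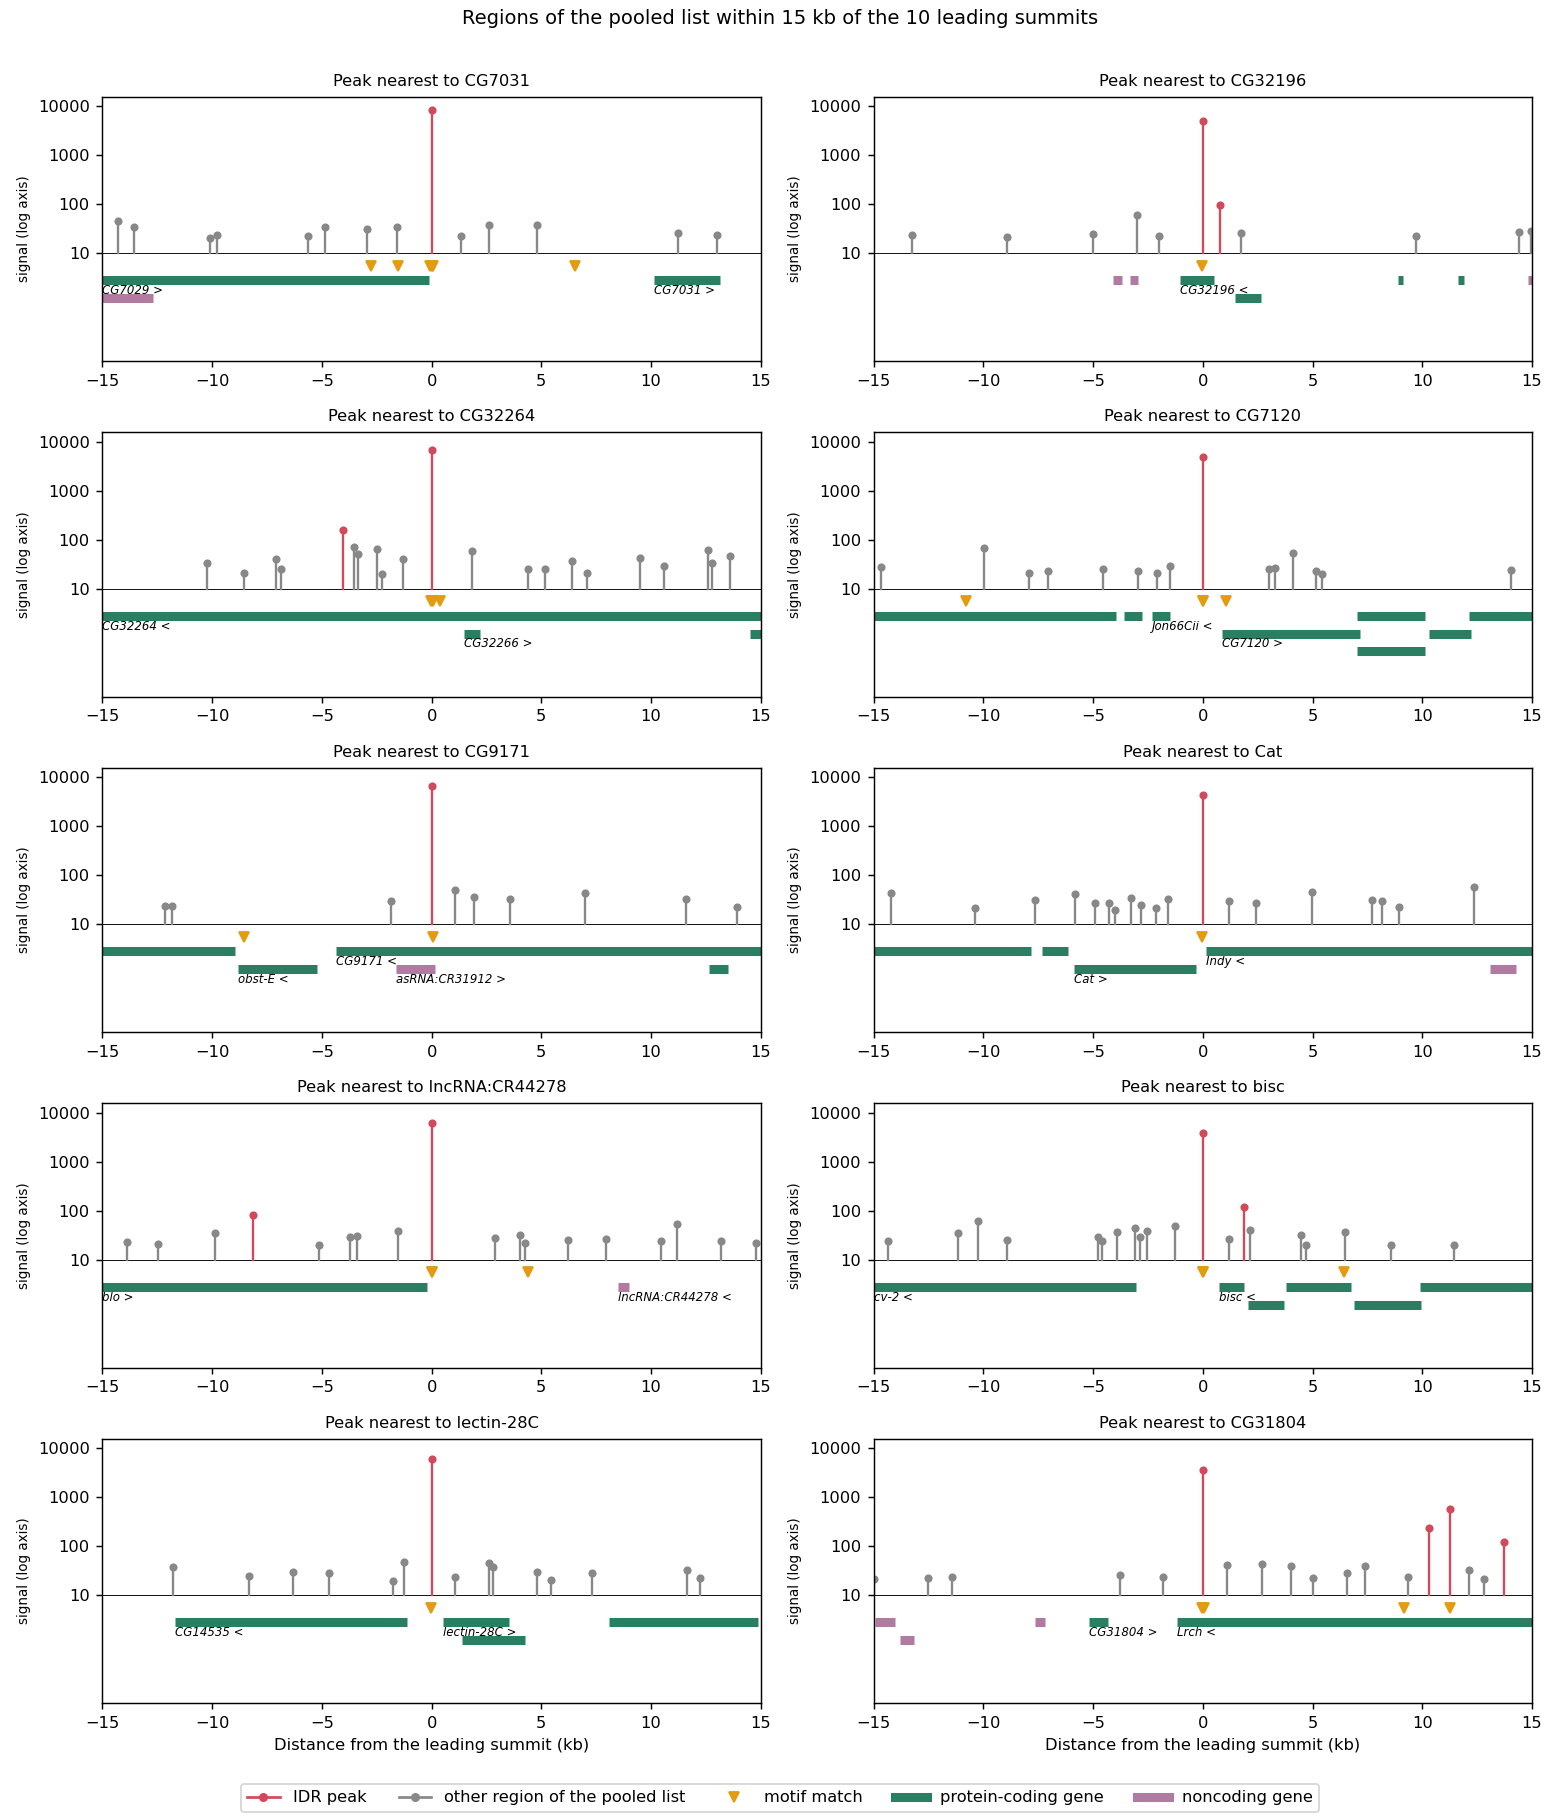
Regions of the pooled unthresholded list within 15 kb of each leading summit, by distance in kb (x axis) and the authors' signal value (y axis, log scale); red marks peaks of the reproducible set, orange triangles matches to the matrix, and bars below the genes, with > or < for the strand of the named ones. The leading peak is the tallest in every map, and the next is at most 158 for 9 of the 10, against 572 for CG31804, in an intron of Lrch.

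Around the 10 genes the remaining binding was weak. The surroundings held 201 regions of the pooled list, 162 of replicate 1 and 206 of replicate 3. Of these, 191, 152 and 195 were not the leading peak, and their median signals of 28.2, 17.8 and 19.1 were close to the medians of the whole lists, 27.5, 16.8 and 18.5. In the pooled list the leading peak was 15.6 (CG31804) to 187 (CG7031) times as high as the next region, with a median of 74.0 over the 10, and it held from 77.9% (CG32264, the longest gene) to 95.1% (CG7031) of the summed signal. In replicate 1 the leading peak of CG7031 stood at 3979 over a next region of 26.4, and in replicate 3 at 4442 over 23.8. The lead of CG9171 was 88.7-fold in replicate 1 and 70.4-fold in replicate 3, that of lncRNA:CR44278 was 123-fold and 110-fold, and that of bisc was 56.8-fold and 23.7-fold. In replicate 3 the leading region of bisc has a second listed summit, of signal 132 and 248 bp from the reproducible one. It was taken as part of the leading peak and not as the next region. Such ratios describe the choice of the genes by their strong peak. Weak regions were dense here against all genes. The median was 4.7 regions of the pooled list per 10 kb around the 10 genes and 2.23 around all genes. Each of the 10 was above the median of all genes. Other strong peaks had similar numbers, so the density is not particular to these genes. Within 15 kb of the summit the leading peaks had a median of 15.5 other pooled regions (9 to 20). The other 5 non-promoter peaks among the first 25 had 21.0 (12 to 25), and the start-site peaks among them 13.5 (6 to 21).

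Further reproducible peaks lay around some of the 10 genes. By their choice all 10 genes have at least 1 such peak in their surroundings, as do 53.7% of all genes. A further one was present for 4 of the 10 genes, and 27.4% of all genes have 2 or more. Since the 10 have 1 by choice, the like share is that among genes with at least 1. There 5017 of 9811 have 2 or more, and nothing is read from the 4. Peaks close to a leading summit but more than 15 kb from the gene are not counted. One of 82.3 lay in blo, 8117 bp from the leading summit of lncRNA:CR44278. Peaks of 572 and 122 lay 11283 and 13744 bp from that of CG31804. CG32264 had 2, one of signal 158 in the same gene 4052 bp from the leading summit (3L, 3785158 to 3785324; 82.9 in replicate 1 and 79.1 in replicate 3) and one of 100 at 23021 bp (3L, 3766130 to 3766513; rank 4644 in replicate 1, and 69.3, rank 1772, in replicate 3). CG31804 had one of 238 in an intron of Lrch, 10317 bp from the leading summit (2L, 17378926 to 17379206), the highest of the 5. It overlapped a region of 115 in replicate 1 and 2 regions of replicate 3, one of 117 that holds its summit and a neighbouring one of 194 to the left. Those of CG32196 and bisc lay at the genes' own starts. Which genes have a further peak depends on the list: in the upper 50% of the reproducible peaks it was 2 of 10, and in as many top-ranked regions of replicate 1 alone, without replicate 3, it was 7 of 10. Without replicate 1 it was 5 of 10.

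At the genes' own starts, regions other than the leading peak were weak or not listed. A reproducible peak within 500 bp of a start was present at CG32196 and bisc, 2 of 10, and at 9.13% of all genes. Since the genes were taken from peaks away from starts, nothing is read from that share. The peak at CG32196 (3L, 18461112 to 18461495) was 280 bp from the start and 804 bp from the leading summit, with a signal of 95.9 in the reproducible set. It was unequal between replicates, with 17.1 (rank 14166) in replicate 1 and 66.4 (rank 1875) in replicate 3. That of bisc (2R, 21384332 to 21384459) was 13 bp from the start, with 122 in the reproducible set, 34.7 in replicate 1 and 85.9 in replicate 3. In the pooled list, regions also lay at starts of CG32264 (66.7), CG9171 (50.4), Cat (42.4) and CG7120 (26.6), none of which reached the lowest reproducible signal of 74.8. CG7031 and CG31804 had no region at their start in any of the 4 lists, and lncRNA:CR44278 had one of 14.4 in replicate 1 alone. Lectin-28C had a region of 17.7 in replicate 1, and in replicate 3 its leading peak itself, at 2910, fell within the 500 bp. The count moves with the window and the list: it was 1 with 250 bp, 5 with 1000 bp, 0 in the upper 50% of reproducible peaks, and 4 in top-ranked regions of replicate 3 without replicate 1. Some of these are leading peaks: with those left out the count was 3 with 1000 bp and 3 without replicate 1.

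Starts of the neighbouring genes were mostly weak as well. CG7029, whose end lies beside the highest peak of all, has 3 start sites. Reproducible peaks lay at those far from the leading summit, with a signal of 119 at the start 43263 bp away and 103 at the one 39549 bp away, and none lay at the nearest, 12436 bp away. At the other neighbours named here no reproducible peak lay within 500 bp of a start. Pooled regions were present at starts of CG32266 (60.8), Indy (58.1), CG14535 (48.2), cv-2 (44.3), Lrch (37.0), skl (34.5) and Jon66Cii (29.5), and none at those of obst-E, blo and CG8746.

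The steep contrast between a leading peak and its neighbourhood was found at other strong sites too. Within 15 kb of the summit in the pooled list, the next region had a median signal of 74.8 around the 10 leading peaks, 119 around the 10 start-site peaks among the first 25, and 166 around the other 5 non-promoter peaks among them. The leading peak exceeded it by a median of 74.0-fold (6.49 to 182), against 39.6-fold (11.8 to 144) at the start-site peaks and 34.3-fold (21.1 to 93.3) at the other non-promoter peaks, and the ranges overlap. The lowest value belonged to CG31804, because of a reproducible peak of 572 in an intron of Lrch 11283 bp away, outside the 15 kb around the gene. The peaks most like these 10 in rank and class are the other 5 non-promoter ones among the first 25. They lie in introns of pum, a translational repressor gene (6548), of Eip74EF, which encodes an ecdysone-induced ETS factor (5164 and 3499), of lncRNA:bxd (3534) and of bun, where the nearest start is that of snoRNA:CG43051-a (4271). The first 3 non-promoter peaks outside the 25 were nearest to BNIP3, a gene of mitochondrial turnover (rank 27, 3190), CG8568 (rank 30, 2966) and klar (rank 33, 2756), with best scores within 50 bp of 29.41, 25.45 and −12.32. Over their whole width these peaks held 2, 2 and 3 matches, so the klar peak has matches away from its summit.

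Base composition at the leading summits was near that of other peaks of this height. Within 50 bp of the summit the GC content had a median of 41.6% (35.6 to 53.5) at the 10 leading summits, 44.6% at the other 15 of the first 25 and 33.7% at the other reproducible peaks. No leading peak overlapped an annotated mobile element, the nearest being 1745 bp from the peak of CG7120 and the farthest 60417 bp from that of CG7031, and 11 of all 2962 peaks (0.371%) overlapped one.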

How the data were processed

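ChIP-seq regions of 2 biological replicates (numbers 1 and 3) and of their pooled reads were used as deposited, on dm6. Per the description files deposited beside the libraries, the authors called regions against a control with no threshold, once per replicate and once for the pool (30000 regions per list), and derived the reproducible set by the irreproducible discovery rate (IDR) from all of these lists. Signal is a score that the authors deposited for each region, and its scale is unstated. The deposited −log10 q-value was read but ranked nothing, since 2224 of the reproducible peaks tie at its highest value. The aligner was not given in the sources used here, nor were the caller and the IDR cutoff. The control and the dm3 lists were not analysed here, and no coordinate was converted. The lists hold no read totals, which leaves depth and its precision unknown, and with 1 group and 2 samples no test was made.

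Summits were placed from the deposited offset and joined to Ensembl release 115 (18277 genes without mobile elements) and the RefSeq Release 6 genome, with positions counted from 1. Members and lists were chosen with earlier results of these data known. Named genes are the 10, the host genes of their peaks, the protein-coding genes with the nearest start on each side, genes with a start within 500 bp of a reproducible summit in the surroundings, the genes of the other 5 non-promoter peaks among the first 25 and of the first 3 outside, and the genes at the edge of the choice. The matrix was trained by iterated best matches on peaks ranked 26 to 600, over 36 columns trimmed to those between the outermost with at least 0.2 bits. The search procedure was run on simulated random sequence with exact copies of a planted site. That run does not cover varied sites like those reported here. Matches were counted on both strands. Alternatives changed distance, start window, threshold, motif setting or left out a replicate. Python 3.11.15, pandas 2.3.3, numpy 2.4.6, scipy 1.17.1 and, for Wilson intervals, statsmodels 0.14.6 were used.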

Additional observations from a re-analysis of the deposited data

How the results depend on the processing

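Of 32 alternative values for 7 counts, 23 stayed within 1.5 times the reported count and 9 did not. The 10 genes had their leading peak in the first 25 regions of both replicates. The same count for the first 50 regions, or for either replicate alone, follows from that and could not differ. These alternatives are among the 23 but say nothing about stability. The 15 reproducible peaks in the surroundings became 12 or 13 with shorter distances or the upper 50% of peaks, and 19 to 20 when 1 replicate was left out. The shorter distances leave out leading peaks themselves, that of CG7031 at 10 kb and also that of lncRNA:CR44278 at 5 kb. Genes with a further peak (4 of 10) numbered 2 in the upper 50% of peaks and 5 to 7 when 1 replicate was left out. Genes with a peak at an own start (2 of 10) numbered 1 with 250 bp, 5 with 1000 bp, 0 in the upper 50% of peaks, and 2 to 4 when 1 replicate was left out, where some of the peaks are leading ones. Summits with a match (8 of 10) numbered 1 at the stricter score and 4 with the exact word, and 8 when either replicate was left out. Matches in a reproducible peak (19) fell to 1 at the stricter score, which fewer sites pass by construction, and were 19 to 20 when 1 replicate was left out. With 5 kb they were 13, since the leading peaks of CG7031 and lncRNA:CR44278 then lie outside. The cause of the other differences was not tested. The 4 intergenic summits past a gene end, a comparison chosen after seeing the data together with its alternatives, were 3 within 500 bp, 5 within 2000 bp and 4 with either replicate left out. Ranking by the −log10 q-value was not run, because 1653 regions of replicate 1 and 3850 of replicate 3 tie at its highest value. No paired analysis was possible because the samples form 1 group and no test was made. Weak regions near the lowest signals are limited by an unknown depth, and an absent region there says only that none was listed.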

Other observations

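In windows of 131 bp at the leading summits a further string was noticed by eye and then counted, so the count is a description. GCGCCNNCT, on either strand, was in 2 of the 10 windows, those of CG9171 and lectin-28C, in 1 of the 15 windows of the other peaks among the first 25, and in 65 of the 2952 windows of all other reproducible peaks (2.2%). CG9171 and lectin-28C are among the 4 leading peaks with a single match to the 19-column matrix.

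Where a leading peak held neighbouring matches on the same strand, their centres were 18 bp apart in CG32264, 21 bp at lncRNA:CR44278, and 25 bp at CG7120. The 4 matches of CG7031, all on the same strand, were 84, 25 and 48 bp apart. At bisc the 2 matches were 23 bp apart on opposite strands. These distances were noticed after the sites had been listed and were not compared with other peaks.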
